A study of Sus scrofa with 6 samples.

Results

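The genes described here are STAR, CYP17A1, CYP19A1, HSD3B1, HSD17B1 and INSL3, which serve steroid hormone synthesis in the ovary or, for INSL3, mark the cells that carry it out. They were chosen by name among the 19465 genes of the 3 deposited tables, and 1 row was found for each of the 6: STAR is ENSSSCG00000026109, CYP17A1 ENSSSCG00000010591, CYP19A1 ENSSSCG00000030168, HSD3B1 ENSSSCG00000006719, HSD17B1 ENSSSCG00000017399 and INSL3 ENSSSCG00000013887. RNA sequencing libraries had been made from hypothalamus, pituitary and ovary of primiparous sows, which have farrowed once, all of the cross Landrace x Large White. One set came from sows in normal estrus and the other from sows in anestrus that the labels attribute to inactive ovaries. No genotype, drug or age is given in the labels for either state. With 6 libraries, each tissue of each state is represented by 1. Tissue came from 3 sows in each state, and whether their RNA was pooled is not stated. None of the differences below could therefore be checked against replicates. Every "higher" or "lower" describes the anestrous library, with the estrous library of that tissue as the reference.

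Steroid synthesis starts when STAR brings cholesterol to the inner mitochondrial membrane, where CYP11A1 (not analysed here) cuts it to pregnenolone. HSD3B1 turns pregnenolone into progesterone, CYP17A1 opens the route to androgens in theca cells, and CYP19A1 (aromatase) with HSD17B1 makes estradiol in granulosa cells. After ovulation the follicle wall becomes the corpus luteum, whose main product is progesterone. INSL3, a peptide hormone of the relaxin family, is secreted by theca cells and acts through the receptor RXFP2.

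Library totals lay between 15314325 and 17384789 reads assigned to genes. Markers matched the tissue labels: the 9 anterior pituitary genes found by name summed to 248936 and 259653 RPM (reads per 1000000 reads assigned to genes) in the pituitary libraries (estrous and anestrous), but to 107 and 101 in the ovary. The 10 granulosa cell markers other than CYP19A1 and HSD17B1 summed to 12708 and 2740 RPM in the ovary, against 1326 and 1244 in the hypothalamus and 679 and 628 in the pituitary, so the anestrous ovary stood less far above the other tissues. The 9 neuron markers summed to 4723 and 4972 RPM in the hypothalamus, against 4.84 and 14.1 in the ovary. Levels across tissues are given as RPM, because the tables were normalised separately. Ratios between the states use the normalised read count of the same table. Every 95% interval is exact and covers counting error only.

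In the ovary, all 6 genes were measured far above the floor of a mean normalised read count of 50, and all 6 lay past 2-fold between the states, meaning a log2 fold of at least 1 in size after adding a pseudocount of 1. STAR, CYP17A1, CYP19A1, INSL3 and HSD17B1 were lower in anestrus and HSD3B1 was higher. Among all 10902 ovarian genes over that floor, 7.95% were lower by 2-fold or more, 12.3% were higher by that much and 20.3% were either, so such differences were common in this pair of libraries. By log2 fold, STAR stood at place 7 from the lowest of these genes, CYP17A1 at place 12, CYP19A1 at place 35, INSL3 at place 193 and HSD17B1 at place 777, and HSD3B1 stood at place 252 from the highest. In such bulk tissue, fewer cells of a type and less RNA per cell cannot be told apart.

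**Figure D1:**
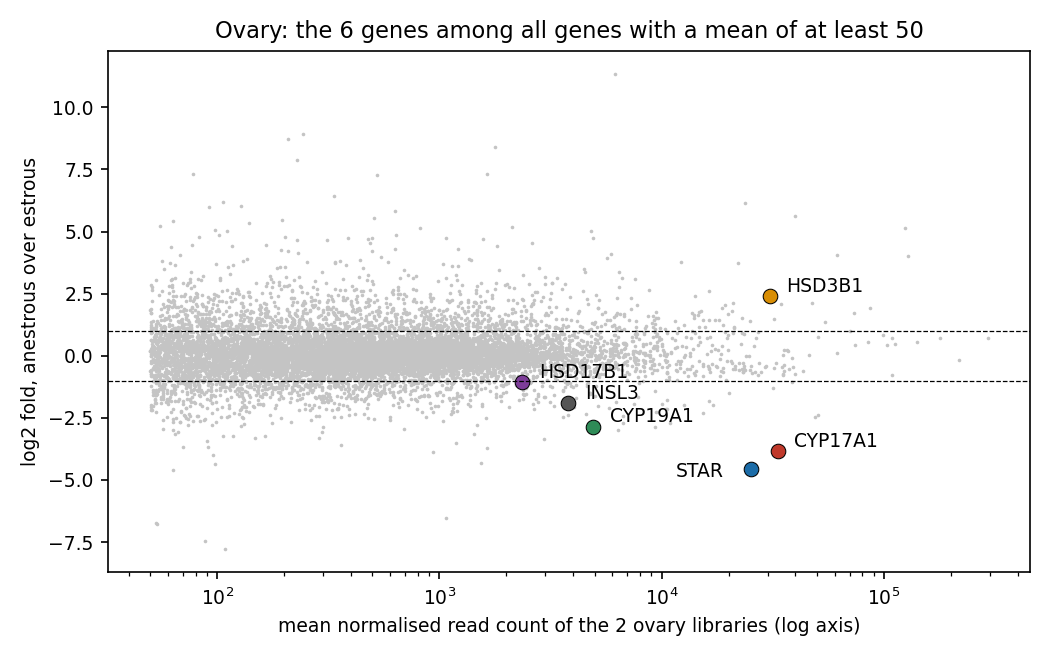
Each point is 1 gene of the ovary, with the mean normalised read count of both libraries on a log horizontal axis and the log2 fold (anestrous over estrous, pseudocount 1) on the vertical axis. The dashed lines mark 2-fold, and the 6 genes are coloured and named: STAR lies at -4.56 and HSD3B1 at 2.38.

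STAR, the cholesterol carrier, gave 3253 RPM in the estrous ovary and 119.6 in the anestrous ovary. In the hypothalamus it gave 3.72 and 3.29, and in the pituitary 0.941 and 0.978. Both other tissues were thus at similar low levels in the 2 states, while in the ovary the normalised read count was 23.6-fold lower (95% interval 22.6 to 24.8). The estrous ovary exceeded the estrous hypothalamus 874-fold in RPM (674 to 1154), and the anestrous ovary exceeded the anestrous hypothalamus 36.4-fold (27.6 to 48.9).

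CYP17A1 and INSL3 are both products of theca cells, and they differed in how far they were lower. CYP17A1, which makes androgens, gave 4178 RPM in the estrous and 256 in the anestrous ovary, and between 0.885 and 1.83 in the 4 other libraries. Its ovarian count was 14.2-fold lower (13.8 to 14.7). INSL3 gave 403 and 94.2 RPM in the ovary and was 3.72-fold lower (3.52 to 3.93). INSL3 was almost confined to the ovary: the hypothalamus gave 0 reads in estrus, which allows up to 0.196 RPM, and 1 read in anestrus, and each pituitary library gave 2 reads. The number of INSL3 reads per CYP17A1 read was 3.82-fold higher in the anestrous ovary (3.58 to 4.07).

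CYP19A1 and HSD17B1, the estradiol-making pair of granulosa cells, also moved by different amounts. CYP19A1 gave 581 and 69.8 RPM in the estrous and anestrous ovary and was 7.23-fold lower (6.80 to 7.69). HSD17B1, which reduces estrone to estradiol, gave 214 and 88.9 and was 2.1-fold lower, with an interval of 1.97 to 2.23 that includes 2-fold. The HSD17B1 to CYP19A1 ratio of reads was thus 3.45-fold higher in anestrus (3.16 to 3.77). CYP19A1 is the gene whose reads may be mixed with near-identical copies: its neighbours in the RefSeq annotation (Sscrofa11.1) are CYP19A3 and CYP19A2, and neither was found by name in the tables.

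HSD3B1, which completes progesterone synthesis, went the other way. It gave 662 RPM in the estrous and 3004 in the anestrous ovary, a 5.22-fold higher normalised count (5.11 to 5.34). In the 4 other libraries it lay between 0.647 and 1.52. The 6 genes together took 0.929% of all reads of the estrous ovary (0.924% to 0.934%) and 0.363% of the anestrous one (0.360% to 0.366%). Of these reads, HSD3B1 held 7.12% in estrus and 82.7% in anestrus, uncorrected for gene length, while CYP17A1 held 45.0% and 7.04%.

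**Figure D2:**
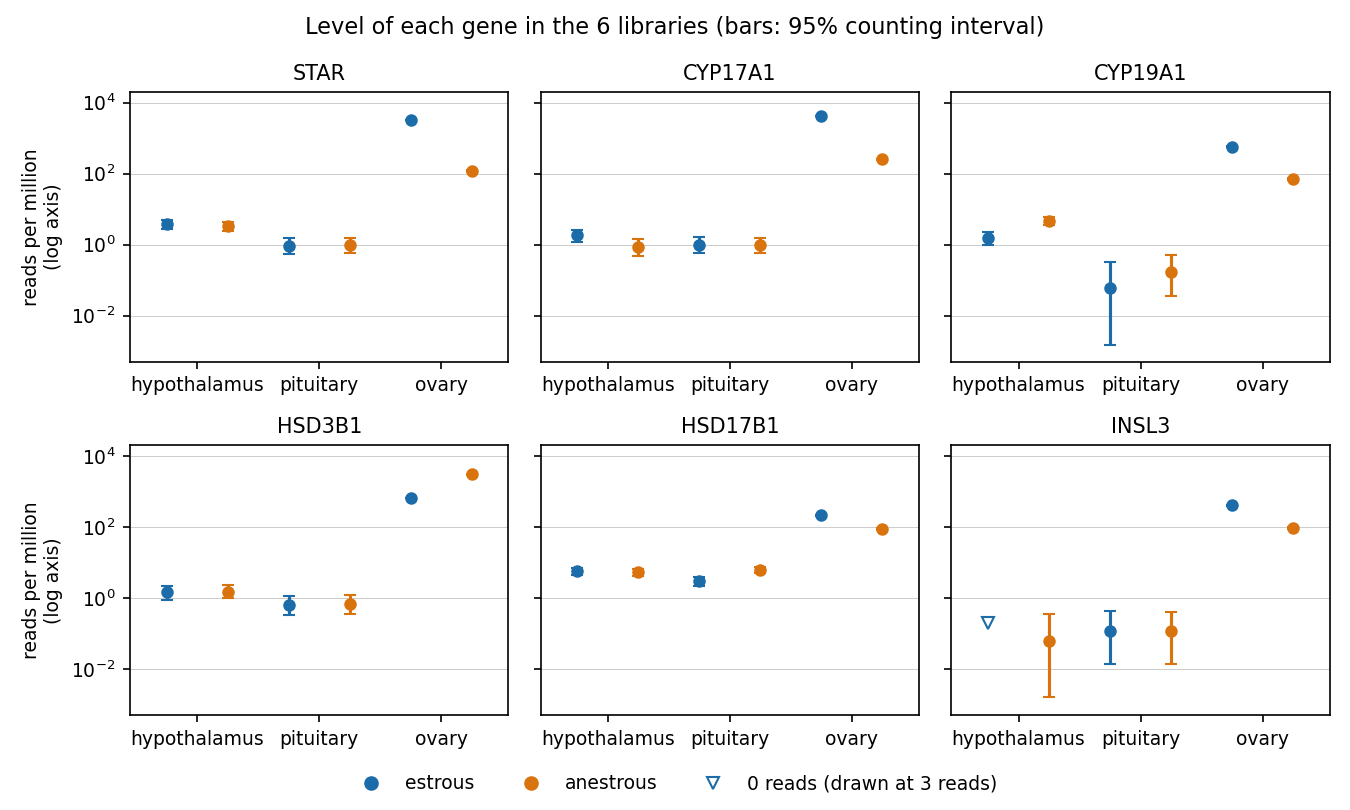
Points show RPM, on a log axis, of each gene in the 6 libraries, with blue for estrous and orange for anestrous sows and bars for the 95% counting interval; an open triangle marks 0 reads, drawn at the level of 3 reads. Every gene is highest in the ovary in both states, and HSD3B1 alone of the 6 is above its estrous level in the anestrous ovary.

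Ratios between genes within a library need no scaling between libraries, and their change needs no gene length. All 15 pairs of the 6 genes were compared in the ovary, and each changed between the states beyond counting error. The 5 pairs with HSD3B1 changed by 10.9-fold (10.2 to 11.7, against HSD17B1) to 123.5-fold (117.5 to 129.9, against STAR). Among the 10 pairs of the other genes the change ran from 1.66-fold (1.58 to 1.76), for CYP17A1 relative to STAR, to 11.3-fold (10.4 to 12.2), for HSD17B1 relative to STAR. The next smallest change, 1.78-fold (1.63 to 1.93) for HSD17B1 relative to INSL3, overlapped that of CYP17A1 and STAR in its interval. The order from the most to the least lowered was STAR, CYP17A1, CYP19A1, INSL3, HSD17B1, and no interval of a pair among them included 1.

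**Figure D3:**
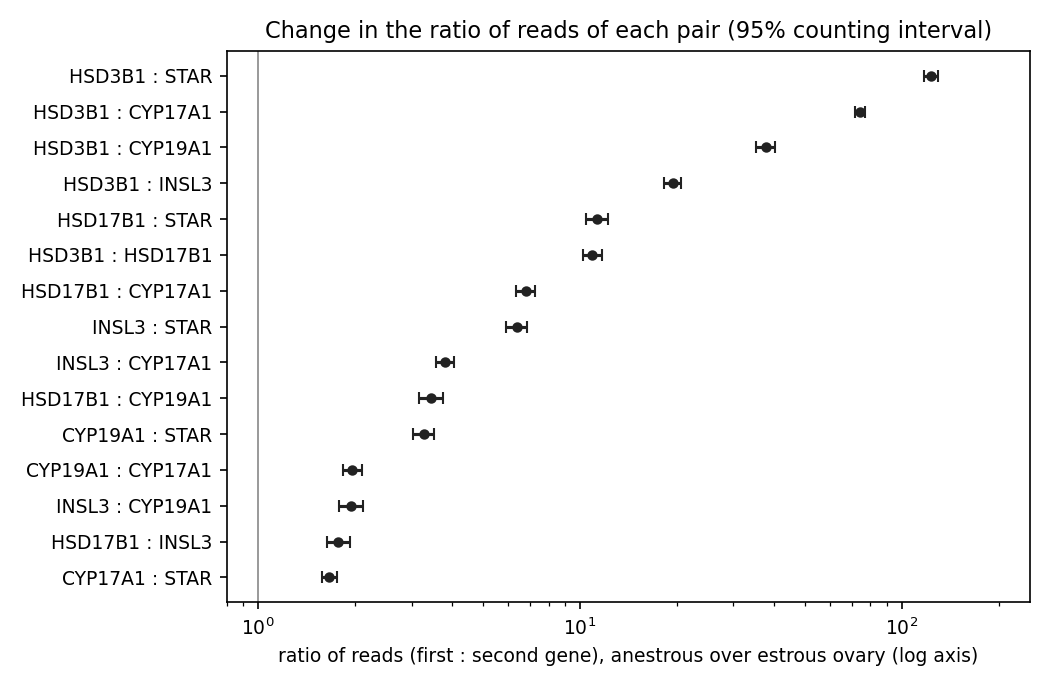
Each row is a pair of genes, and the point on the log axis is the ratio of reads of the first to the second gene in the anestrous ovary divided by that in the estrous ovary, with its 95% counting interval. Pairs are turned so that the change is above 1; HSD3B1 against STAR is at the top with 123.5-fold and CYP17A1 against STAR at the bottom with 1.66-fold.

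In the authors' deposited table the adjusted p-values of these ovarian differences were 0.136 for CYP19A1, 0.180 for STAR, 0.538 for CYP17A1, 0.614 for INSL3, and 1 for HSD17B1 and HSD3B1. That test compares a pair of libraries, not the states. With library totals made equal, which moved the median log2 fold of all ovarian genes from 0.02 to -0.18, each of the 6 genes kept its direction and stayed past 2-fold, with HSD17B1 at -1.27 and HSD3B1 at 2.18. That scaling turned the split of all ovarian genes past 2-fold from 60.8% higher to 45.4% higher.

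Outside the ovary, reads of the 6 genes were few, summing to 217 and 248 in the hypothalamus and 98 and 159 in the pituitary. The brain is known to make estradiol locally with aromatase, so the hypothalamic value of CYP19A1 is the one of interest: the estrous library held 23 of its reads, the anestrous library held 74, and the normalised count was 3.32-fold higher (2.06 to 5.56). Its mean of 48.9 fell just below the floor of 50, so it was not counted as past 2-fold, and its p in the authors' deposited table was 0.00985 before and 0.498 after adjustment. Of the hypothalamic genes over the floor, 1.04% were lower and 1.29% higher by 2-fold or more, 2.34% in all. With 1 read and 3 reads of CYP19A1 in the pituitary, a difference was not detectable at this depth.

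Beside the hypothalamic CYP19A1 value, markers of the thalamus, the region that borders the hypothalamus, were also higher. Of 12 such genes, 10 were found and 9 were over the floor; 8 of these were higher, 5 of them by 2-fold or more, with TCF7L2 at 211 and 769 reads and NTNG1 at 350 and 2020. Their median log2 fold was 1.24, their sum was 391 and 807 RPM, and none was at 0. Of 17 genes found for hypothalamic nuclei, 14 were over the floor. Of these, 3 (21.4%) were past 2-fold downwards and 2 (14.3%) upwards, with a median of -0.04 and a sum of 901 and 986 RPM. The 9 neuron markers, 8 of them over the floor, had a median of 0.48, with 2 (25%) past 2-fold downwards and 1 (12.5%) upwards. Among all hypothalamic genes over the floor the shares were 1.04% and 1.29%, so both lists exceeded them in both directions. The part of these marker genes in the CYP19A1 value was not tested.

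HSD17B1 was the only one of the 6 over the floor in the pituitary, where the estrous library held 51 of its reads and the anestrous library 108. The normalised count was 2.24-fold higher (1.59 to 3.20). Among pituitary genes over the floor, 1.2% were higher by 2-fold or more, 1.9% were lower by that much and 3.11% were either. Its p in the authors' deposited table was 0.0495 before adjustment and 1 after it. COASY, which lies next to HSD17B1 in the RefSeq annotation, gave 754 and 1069 reads in these libraries, and whether counting used strand is not given in the sources used here; its part in the HSD17B1 value was not tested. In the hypothalamus HSD17B1 gave 87 and 83 reads and STAR 57 and 52, the only genes of the 6 over the floor there, with ratios of 0.985 (0.720 to 1.35) and 0.942 (0.634 to 1.40).

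The remaining hypothalamic and pituitary values were low, and their intervals included equal levels in the 2 states. While ovarian HSD3B1 went from 10245 to 49378 reads, the hypothalamus gave 22 and 24 and the pituitary 11 and 12. While ovarian STAR went from 50383 to 1966 reads, the pituitary gave 16 and 17. CYP17A1 gave 28 and 14 reads in the hypothalamus, a ratio of 0.516 whose interval of 0.251 to 1.01 includes equal levels, and 17 in each pituitary library. INHA, an abundant granulosa gene outside the list, gave 59 and 52 reads in the hypothalamus beside 86346 and 14495 in the ovary.

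**Figure D4:**
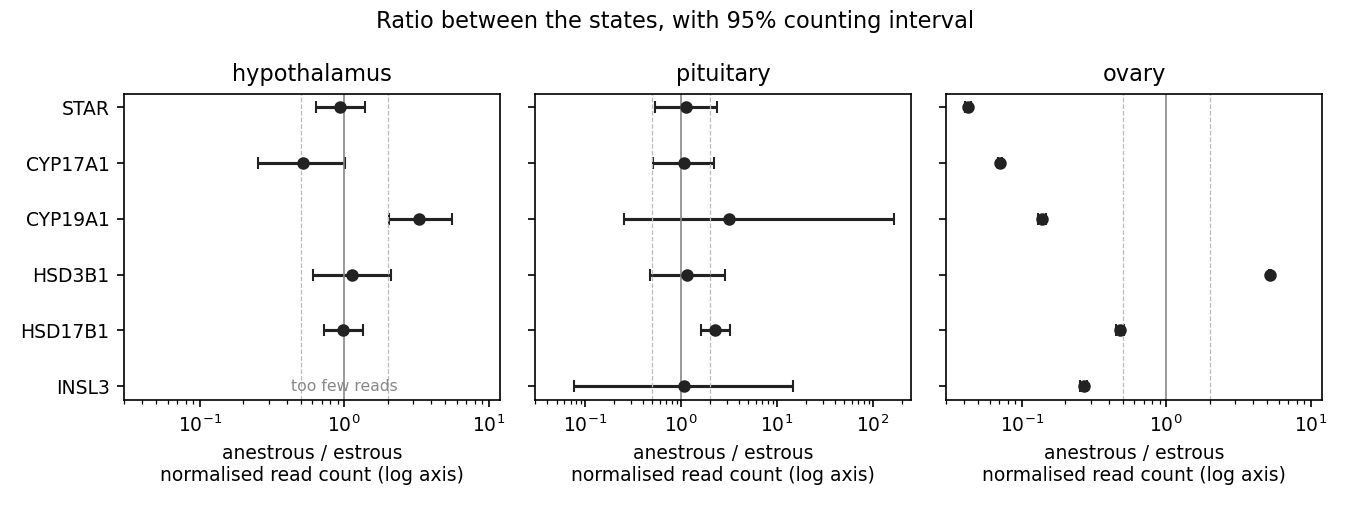
Points are the anestrous to estrous ratio of the normalised read count of each gene, on a log axis, with the 95% counting interval, in the hypothalamus, the pituitary and the ovary; the solid line marks equal levels and the dashed lines 2-fold, and the pituitary axis is wider. In the ovary all 6 intervals are narrow and away from 1, while outside it only CYP19A1 in the hypothalamus and HSD17B1 in the pituitary have intervals that leave out 1.

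Of 110 other genes of steroid synthesis and its control, 82 were found by name and 60 were over the floor in the ovary. Of these, 17 (28.3%) were lower by 2-fold or more, 7 (11.7%) were higher by that much and 36 were within 2-fold, beside 7.95% and 12.3% of all ovarian genes. Their median log2 fold was -0.27, against 0.02 over all ovarian genes. In the hypothalamus none of 56 such genes over the floor was past 2-fold, and in the pituitary 2 of 51 were lower, CREM and FOXO1, and 1 was higher, NR0B1. A further 26 were below the floor in the hypothalamus and not counted. Among them were NR5A2, with 57 and 3 reads, and HSD17B13, with 16 and 37.

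Genes of cholesterol supply lay on both sides. SCARB1, which takes cholesterol esters from high density lipoprotein, was 3.82-fold lower (3.69 to 3.95). NPC2, which moves cholesterol out of lysosomes, was 3.28-fold higher (3.19 to 3.37), and TSPO, an outer mitochondrial membrane protein, 2.83-fold higher (2.63 to 3.04). Of 12 genes over the floor, 2 (16.7%) were lower, 2 (16.7%) higher and 8 within 2-fold. The shares of all ovarian genes were 7.95% lower and 12.3% higher, so the higher share was near that of all genes.

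Of 8 genes listed as electron donors of the steroid P450 enzymes, 5 were found by name, and FDX1, POR and H6PD were not. All 5 were over the floor, with 2 lower by 2-fold or more, none higher and 3 within 2-fold. Among all ovarian genes 7.95% were lower and 12.3% higher by that much. FDXR, which starts electron transfer to the mitochondrial enzymes, had 6312 and 1062 reads, a normalised count 5.48-fold lower (5.14 to 5.86). CYB5A, a cytochrome b5 that favours the androgen-forming step of CYP17A1, had 19635 and 2752 reads, 6.58-fold lower (6.33 to 6.85). PGRMC1 and CYB5R3 had log2 folds of -0.72 and -0.70, and CYB5B one of 0.37.

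Other enzymes of the pathway differed by family. Of 11 other hydroxysteroid dehydrogenase genes over the floor, 9 were within 2-fold. HSD11B2, which inactivates cortisol, had a log2 fold of -1.88, and HSD3B7, which acts in bile acid synthesis, one of 1.00, on the threshold. Among the reductases and conjugating enzymes, SULT2A1 gave 135 and 17 reads and SRD5A1, a steroid 5-alpha reductase, 335 and 658, with 3 further genes within 2-fold. CYP7A1, the rate-limiting enzyme of bile acid synthesis, gave 1 read in estrus and 439 in anestrus, with a ratio of 476 and an interval of 84.9 to 18833. CYP51A1 and CYP27A1, of sterol synthesis and oxidation, were at -1.15 and -1.05, so none of the 3 other P450 genes over the floor was within 2-fold. CYP21A2, the adrenal 21-hydroxylase, gave 17 reads and 2 reads, below the floor.

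Receptors and regulators of the pathway were lower in 7 of 14 genes over the floor, higher in 1 and within 2-fold in 6. LHCGR, the receptor for luteinising hormone, gave 1987 and 385 reads. The nuclear receptor gene NR5A2 gave 4338 and 1206, and FOXL2, a granulosa transcription factor, 634 and 180. CEBPA was the higher one, with 62 and 305 reads. In cAMP signalling, which carries the gonadotropin signal, 7 of 10 genes were within 2-fold, among them the G protein gene GNAS at -0.03, while the adenylyl cyclase genes ADCY3 and ADCY6 were at -1.58 and -1.01 and PRKAR2A, a regulatory subunit of protein kinase A, at 1.70. RXFP2, the INSL3 receptor, gave 54 reads in the estrous and 2 in the anestrous ovary, a 24.9-fold lower count with an interval of 6.57 to 211, at a mean below the floor. None of the 5 genes found of the relaxin family and its receptors passed the floor.

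**Figure D5:**
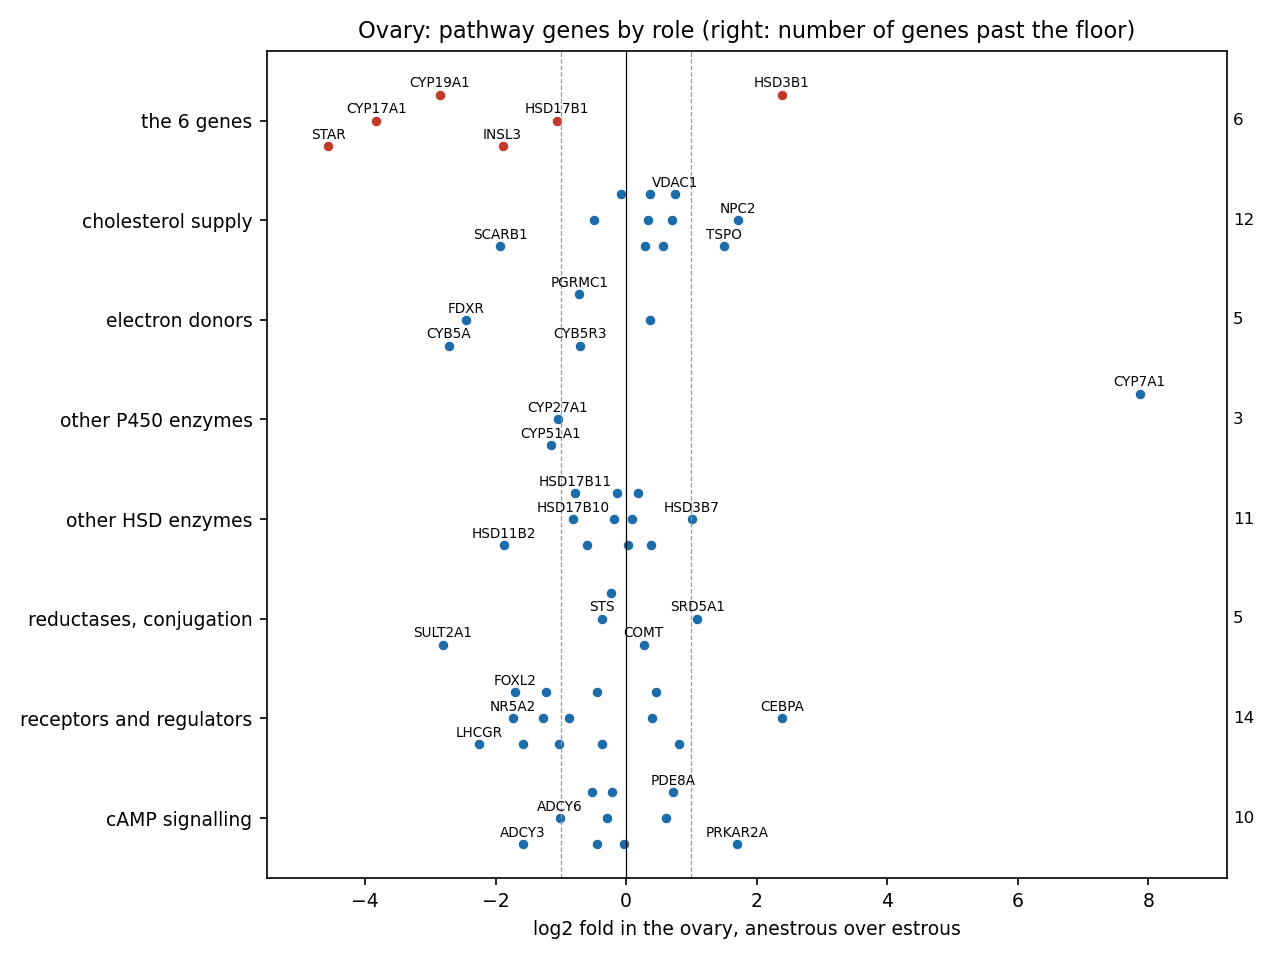
Each point is a gene over the floor in the ovary, placed by its log2 fold (anestrous over estrous) on the horizontal axis and grouped by role; red points are the 6 genes, blue points other pathway genes, dashed lines 2-fold, and the number at the right counts the genes of a row over the floor, of which 1 in cholesterol supply is not drawn. Up to 4 drawn genes with the largest log2 fold in size are named per row: CYP7A1 at 7.87 lies farthest from 0 among the blue points drawn.

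Markers of granulosa cells, theca cells and oocytes were lower on balance, as were 5 of the 6 genes. Of 9 granulosa markers over the floor, 6 were at least 2-fold lower and none higher (median -1.60; summed normalised count 189055 and 46876), with AMHR2, INHA and SERPINE2 at -2.60, -2.46 and -2.39. Of 8 theca markers, 5 were lower and none higher (median -1.23), with TCF21 at -1.49 and the hedgehog target GLI1 at -1.47. Their sum was 56138 and 38964, most of it ACTA2 (45159 and 32642), which is also on the smooth muscle list. NR2F2 and LHCGR are also among the receptors and regulators above. Of 6 oocyte markers, 5 were lower and none higher (median -1.87; 2805 and 1004). Of the markers found from these 3 lists, NOBOX, an oocyte gene, was at 0 in both libraries. The part of these cell types in the values of the 6 genes was not tested.

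Luteal markers were split. Of 7 over the floor, 3 were at least 2-fold lower, LHCGR (also on the theca list), SCARB1 and PGR, and 2 higher: the prostaglandin F receptor gene PTGFR gave 701 and 2110 reads, and TIMP1, a metalloproteinase inhibitor gene, 7347 and 111595. Their summed normalised count was 26536 and 123555, most of it TIMP1 in anestrus. Macrophage markers were at least 2-fold higher in 6 of 9 and lower in none (median 2.26; sum 19860 and 108879), led by the lysozyme gene LYZ with 1648 and 75250 reads, while C1QA was at -0.19 and CD163, below the floor, at -2.50. The part of these cells in the HSD3B1 value was not tested.

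Other marker lists were smaller or mixed. Smooth muscle genes were lower in 3 of 6 (median -0.75; sum 103846 and 79790), stroma genes lower in 2 and higher in 1 of 6 (median -0.70; 309992 and 287526), and endothelial genes lower in 1 of 9 (median 0.01; 13364 and 14533). Epithelial genes of the oviduct type were lower in 3 and higher in 1 of 4 (median -2.02; 1094 and 583), with the oviductal glycoprotein gene OVGP1 at 321 and 44 reads. T and B cell genes were higher in 1 of 6 (median 0.03; 1016 and 1568). Of the red blood cell genes only HBB passed the floor, with 801 and 254 reads.

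Genes outside the 6 with profiles most like theirs were sought over the 6 libraries. Likeness was the root mean square difference of log2(RPM + 1) after each gene was centred on its own mean, over 9742 named genes past the floor in the ovary, and libraries of 1 tissue share most of that profile. For STAR the nearest of these were ACTG2 (0.65), CTSL (0.87) and INHA (0.96), and for CYP17A1 they were INHA (0.42), ACTG2 (0.74) and CTSL (0.75). Some of the 6 lay within the same range of each other. STAR stood at 0.73 from CYP17A1, 0.84 from CYP19A1 and 0.95 from INSL3, and CYP17A1 at 0.90 from INSL3. CYP19A1 stood at 0.97 from INSL3 and 1.38 from CYP17A1. HSD3B1 was at 1.56 or more from each of the others. HSD17B1 was also far from them, at 1.33 from CYP19A1 up to 2.52 from HSD3B1. Outside the 6, CYP19A1 was nearest to ACTG2 (0.75), SERPINE2 (0.81) and TCF23 (0.88). INSL3 was nearest to ACTG2 (0.39), CTSL (0.56) and GATA6 (0.62). HSD17B1 had PPARG (0.29) and TPM2 (0.31) among its nearest. HSD3B1 was farther from its nearest genes than the others were from theirs, with CCL21 at 0.91, INHBA at 1.25 and CTSL at 1.39.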

How the data were processed

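For each tissue the authors deposited a table that holds a normalised signal per gene and library and, per the file headers, a ratio (fold change), a p-value and an adjusted p-value for that pair; DESeq appears in the file names per the labels. TopHat2 2.1.0 is listed per the submitters' processing notes. The counter, genome build, annotation and strand setting are not given in the sources used here. Within each deposited signal column, 100% of values were whole multiples of the smallest value above 0, within 0.01 of a read, so reads were recovered. Names are the tables' own with the trailing number removed (12762 genes), then a reference table of gene names (14419 in all).

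Ratio intervals are exact conditional binomial (Clopper-Pearson), or exact conditional odds ratios for gene pairs, at 95%. Differences were counted at a mean of at least 50 and a log2 fold (pseudocount 1) of at least 1. The rules for 2-fold differences and ratio intervals were run on simulated reads with counting error only, so variation between sows was not covered. Genes named were the 6, up to 4 per list with the largest log2 fold, and the 3 of most alike profile; others were chosen after their values were seen, and some genes are not reported here by name. Members and lists were chosen with earlier results of these data known, and the thalamus and hypothalamic nuclei lists were added last. A count test on the recovered reads (edgeR 4.0.16, DESeq2 1.42.0, R 4.3.3), with tissue as a block, takes tissues as replicates, which they are not, and was kept as an alternative.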

Additional observations from a re-analysis of the deposited data

Results flagged for a closer look

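CYP19A1 was higher in the anestrous hypothalamus and lower in the anestrous ovary, with both counting intervals away from equal levels: the log2 folds, with a pseudocount of 1, were 1.69 and -2.85, a difference of 4.54. HSD17B1 was higher in the anestrous pituitary and lower in the anestrous ovary, at 1.15 and -1.07, a difference of 2.22. Opposite directions in a pair of tissues drew attention to both. With 1 library per tissue and state, neither difference between tissues was tested.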

How the results depend on the processing

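The counts of the 6 ovarian genes past 2-fold, 5 lower and 1 higher, held with a pseudocount of 5, without a floor, at a floor of 200, and with scaling by a trimmed mean of log ratios or to equal totals. When the authors' adjusted p also had to be 0.05 or less, they were 0 and 0, and of the other pathway genes 1 lower and 1 higher (CYP7A1) were left. Without a floor, 27 other pathway genes were lower instead of 17. The median log2 fold of those genes was -0.47 with equal totals and -0.37 without a floor. In the same scalings, added after the data were seen, hypothalamic CYP19A1 lay between 1.60 and 1.69 and pituitary HSD17B1 between 1.04 and 1.16. The counts of all genes past 2-fold moved with the floor: in the ovary 2223 were lower and 2534 higher without one, and 501 and 880 at 200. In the hypothalamus they were 877 and 845 without a floor and 29 and 75 at 200, and in the pituitary 1139 and 965, and 84 and 48. With the authors' adjusted p they were 15 and 92 in the ovary, 31 and 67 in the hypothalamus and 50 and 36 in the pituitary.

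The count test on recovered reads with tissue as a block called 0 of 14444 genes by edgeR's quasi-likelihood test at an adjusted p of 0.05 (542 at an unadjusted p under 0.05), and DESeq2 called 46 (556 unadjusted). Adjusted p for the 6 genes was at least 0.986 by edgeR and DESeq2, each averaging over tissues. That block pairs the states by tissue. No paired analysis was possible because, within a tissue, each state has 1 library and the labels carry no replicate numbers; for the same reason no library could be left out of a comparison within a tissue. Depth limits the hypothalamic and pituitary values, where no count of the 6 genes was above 108 reads.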

Other observations

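The KEGG annotation in the deposited tables gives another grouping, looked at after the files were seen. It shares genes, FSHR among them, with the 110 other pathway genes above. Of 26 genes of ovarian steroidogenesis other than the 6, 20 were over the floor in the ovary. Of these, 9 (45%) were at least 2-fold lower and 1 (5%) higher, beside 7.95% and 12.3% of all ovarian genes. Their median log2 fold was -0.84. The lower ones include PLA2G4A and PLA2G4E, phospholipase genes (737 and 249 reads, and 206 and 38), and the adenylyl cyclase genes ADCY5 and ADCY2. The higher one is ALOX5, the arachidonate lipoxygenase gene, with 47 and 610 reads. Of 20 other genes of steroid hormone biosynthesis, 10 were over the floor, 1 lower and 2 higher, with a median of 0.06.

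Chromosomal neighbours in the RefSeq annotation (Sscrofa11.1, names only) were mostly within 2-fold in the ovary. STAR lies between LSM1 (log2 fold -0.36) and ASH2L (-0.66), INSL3 between JAK3 (-0.07) and B3GNT3 (0.72), and HSD17B1 between COASY (-0.01) and ATP6V0A1 (0.72). AS3MT, an arsenic methyltransferase gene next to CYP17A1, gave 473 reads in the estrous and 72 in the anestrous ovary (log2 fold -2.58), while WBP1L on the other side was at -0.09. HAO2, next to HSD3B1, gave 112 and 249 reads (1.26). BORCS7 overlaps CYP17A1 in that annotation and was not found by name in the tables.

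Pituitary hormone genes gave reads in the ovary libraries, with PRL at 842 and 873 and GH1 at 469 and 466, beside 2136505 and 2682174 for PRL and 1080328 and 1191687 for GH1 in the pituitary. MC2R, the corticotropin receptor gene, gave 12 reads in the estrous ovary and 0 in the anestrous one, at least 3.69-fold lower when 3 reads are taken as the limit of that library.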
